A study of Mus musculus with 24 samples.

Results

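The 9 genes described here encode the core of the synaptonemal complex and the chromosome axis of meiotic prophase: *Hormad1*, *Hormad2*, *Sycp2*, *Sycp3*, *Sycp1*, *Syce1*, *Syce2*, *Syce3* and *Tex12*. They were chosen by name, for the structure that their proteins form, although earlier results of these data were known. All 9 were found among the 24456 genes listed in the count tables. Every one of them passed the filter on low counts that kept 17170 genes for testing, with at least 175 reads in every library (the lowest was for *Syce3*).

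The synaptonemal complex is the protein zipper that holds homologous chromosomes together in spermatocytes. HORMAD1 and HORMAD2 sit on the axis of chromosomes that have not yet paired and are depleted from it as pairing completes. SYCP2 and SYCP3 build the lateral elements along each axis, SYCP1 forms the transverse filaments that bridge them, and SYCE1, SYCE2, SYCE3 and TEX12 make up the central element where the filaments meet. The complex is built in early prophase, is complete in pachytene cells and is dismantled before the meiotic divisions, so spermatids that follow no longer carry it.

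Testes were collected from male mice, either wild-type (WT) or carrying the *Atad2* knockout (KO) on both alleles, on days 20, 22, 24 and 26 after birth, when the first wave of spermatogenesis passes from spermatocytes to spermatids. ATAD2 is a bromodomain AAA+ ATPase of chromatin. The KO allele carries a *lacZ* cassette that splices onto exon 11, and exon 12 was deleted by crossing to mice with Cre under the ubiquitous *CMV* promoter, so that every cell type of the KO testis carries the lesion. Each genotype was represented by 4 libraries at days 20 and 22 and by 2 libraries at days 24 and 26, giving 24 libraries of ribosome-depleted, strand-specific total RNA, and the study calls its replicates biological. No treatment was given, and WT mice carry neither the cassette nor the deletion.

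The libraries held 10709667 to 19491935 reads assigned to genes, and the 9 genes together took 0.206% to 0.448% of them. *Atad2* itself was lower in all KO than in all WT libraries of the same day, with an average log2 fold change of -1.37 (SE 0.112, edgeR quasi-likelihood test, adjusted p = 1.23e-07). A single library, WT day 20 replicate 2, stood apart: 13.7% of its reads mapped to several places against 4.74% to 9.16% elsewhere, mitochondrial rRNA took 3.26% of its gene reads, and it was the highest of its group for all 9 genes. Values that moved most without it are also given without it. On marker lists, 7 of 7 Sertoli cell genes and 6 of 6 pachytene genes were above the filter. So was every matched gene of the other lists, so passing the filter does not check the tissue label. The labels and the study's methods name testis as the source, although the extraction note in the labels also mentions purified spermatogenic fractions. Round spermatid marker genes (*Acrv1*, *Spaca1*, *Spaca7*, *Catsper3*, *Catsper4* and *Izumo1*) were higher in KO at day 20 for 6 of 6, with summed levels of 7.72 to 75.6 CPM (read counts scaled to library size) in KO against 3.01 to 8.21 in WT. Elongating spermatid genes were higher in KO for 1 of 6 at day 20, 4 of 6 at day 22 and 6 of 6 in the mean of the 4 days. In that mean, 5 of 6 round spermatid and 1 of 7 Leydig genes were also higher, and 2 of 5 peritubular and 2 of 4 endothelial genes were lower. Of all tested genes, 3.34% were called at day 20, 2.51% at day 22 and 7.08% in the mean. Leydig sums had group means of 420 to 1654 CPM and peritubular sums 291 to 815 CPM, so cells outside the germ line were in the libraries. For the genotype comparisons below, a fit was made with a stage score of each library as covariate (log2 CPM centred on each gene's mean over all libraries, averaged over the round spermatid genes, minus the same for 6 pachytene genes), and the part of the other lists was not tested.

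Levels of the 9 genes were compared with each other per transcript length, as FPKM, in which CPM is divided by the length of the exons. In the 12 WT libraries *Hormad1* (219 ± 58.3 FPKM, SD, n = 12), *Sycp2* (215 ± 64.1) and *Sycp3* (210 ± 28.3) shared the top of the order. Neighbours in this trio could not be ranked, since *Hormad1* exceeded *Sycp2* in 7 of 12 libraries and *Sycp2* exceeded *Sycp3* in 6 of 12. *Sycp1* (160 ± 57.9 FPKM) and *Syce1* (158 ± 22.6 FPKM) followed, with *Sycp1* the higher in only 4 of 12 libraries although its mean was the larger. WT day 20 replicate 2 raised the means and SDs of *Hormad1* (383 FPKM in that library), *Sycp2* (409) and *Sycp1* (331), so their order by mean leans on it. A wide gap then separated the remaining central element genes, as *Syce1* was above *Syce3* in 12 of 12 libraries. *Syce3* (38.6 ± 8.78 FPKM), *Tex12* (33.2 ± 8.67 FPKM), *Syce2* (23.8 ± 5.13 FPKM) and *Hormad2* (10.4 ± 3.94 FPKM) closed the order. *Tex12* exceeded *Syce2* in 11 of 12 WT libraries, and *Syce2* exceeded *Hormad2* in 12 of 12. Genes of partner proteins did not all have like levels. *Syce2* and *Tex12*, whose proteins assemble into one complex, lay near each other. By contrast, *Syce1* and *Syce3* of the same central element lay far apart, and *Hormad1* and *Hormad2* lay at opposite ends of the order. FPKM here divides by all annotated exons of a gene and is not a count of molecules. The 12 KO libraries gave the same division into 5 high and 4 low genes, with *Sycp3* at the top (207 ± 56.9 FPKM) and *Hormad2* at the bottom (8.84 ± 1.58 FPKM). There *Sycp3* exceeded the next gene, *Hormad1*, in only 6 of 12 libraries, so the top could again not be ranked.

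**Figure D1:**
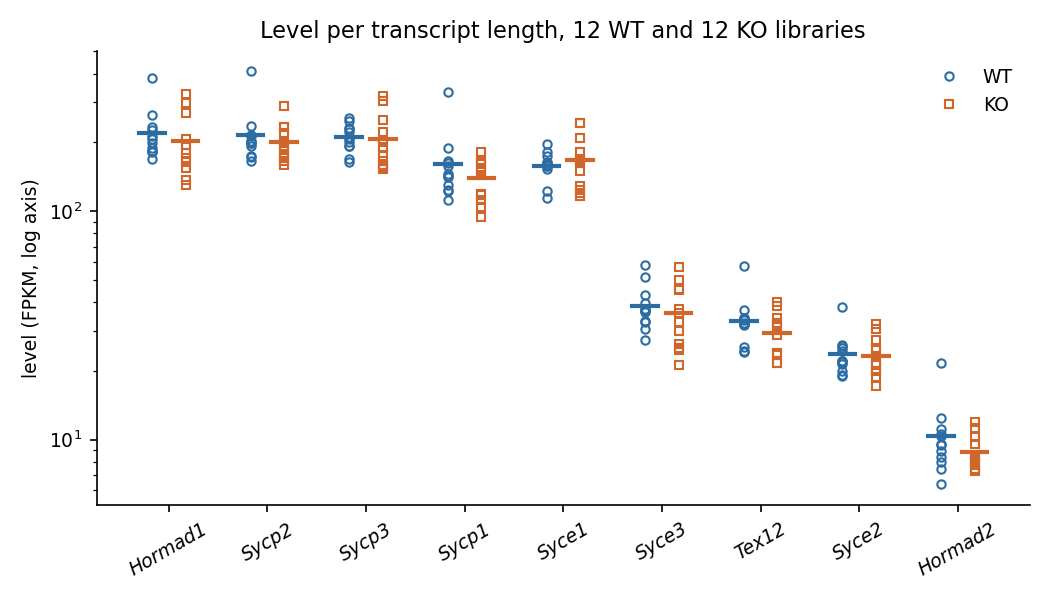
Level of each gene per transcript length (FPKM, log axis) in the 12 WT libraries (circles) and 12 KO libraries (squares), with horizontal bars at the mean. *Hormad1*, *Sycp2*, *Sycp3*, *Sycp1* and *Syce1* lie in an upper group, and *Syce3*, *Tex12*, *Syce2* and *Hormad2* in a lower one, in both genotypes.

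Promoter sequences were read to show what the genes share apart from function. All 9 genes matched RefSeq promoter windows (GRCm38.p6, 250 bases before to 50 bases after a transcription start, 12 windows in all). Each window was searched on both strands for the E2F core TCCCGC and the E-box CACGTG, which cannot overlap by more than a base and are the cores bound by E2F factors and by MAX-type basic helix-loop-helix factors. The E2F core was found in 7 of the 12 windows (5 of 9 genes) against 20.0% of 32851 windows of all genes, and the E-box in 6 of 12 (also 5 of 9 genes) against 7.15%. Among windows with at least 10 CpG, which include 11 of the 12, these shares were 40.3% and 10.9%, and the 2 windows of *Hormad1* nearly coincide. The same 5 genes (*Hormad1*, *Sycp3*, *Sycp1*, *Syce2* and *Tex12*) held both in a single window, whereas both occurred together in 1.99% of all windows and in 4.35% of the 14281 windows with at least 10 CpG. *Sycp2*, *Hormad2*, *Syce1* and *Syce3* held neither. The windows of the 9 genes had a median of 17.5 CpG against 7 for all windows, a difference in base composition that moves with both motifs. Also searched on both strands were AACNG, the core bound by MYB factors, found in 12 of 12 windows against 80.3% of all, and CCTCAG, a STRA8-type motif, found in 7 of 12 against 26.8%. A match describes the letters only and not a bound site. Printed here are windows of 4 of the 5 genes that hold both motifs, taken from each structural layer, and that of *Syce1*, which holds neither and whose transcript later went the other way in KO; capitals mark the E2F core and the E-box on either strand. Their positions are chr3:95559427-95559726, plus strand (*Hormad1*), chr10:88459337-88459636, plus strand (*Sycp3*), chr3:102936051-102936350, minus strand (*Sycp1*), chr9:50561219-50561518, minus strand (*Tex12*) and chr7:140787805-140788104, minus strand (*Syce1*).
Hormad1: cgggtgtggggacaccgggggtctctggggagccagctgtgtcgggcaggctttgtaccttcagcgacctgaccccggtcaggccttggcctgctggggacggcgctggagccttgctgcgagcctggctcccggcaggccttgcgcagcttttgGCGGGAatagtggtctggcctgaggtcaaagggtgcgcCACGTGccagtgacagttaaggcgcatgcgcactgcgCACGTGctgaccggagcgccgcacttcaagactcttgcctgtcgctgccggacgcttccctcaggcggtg
Sycp3: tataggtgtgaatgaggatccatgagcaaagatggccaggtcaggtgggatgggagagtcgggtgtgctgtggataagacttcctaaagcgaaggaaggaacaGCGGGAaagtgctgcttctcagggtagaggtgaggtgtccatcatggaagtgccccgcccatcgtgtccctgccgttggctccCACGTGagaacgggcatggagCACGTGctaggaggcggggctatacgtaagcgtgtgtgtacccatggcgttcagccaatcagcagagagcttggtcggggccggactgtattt
Sycp1: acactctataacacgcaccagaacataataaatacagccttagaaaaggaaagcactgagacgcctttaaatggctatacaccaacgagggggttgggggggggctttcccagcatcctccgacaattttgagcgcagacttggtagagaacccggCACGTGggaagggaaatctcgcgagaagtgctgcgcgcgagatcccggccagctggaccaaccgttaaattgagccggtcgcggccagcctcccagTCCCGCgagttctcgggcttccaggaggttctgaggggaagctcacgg
Tex12: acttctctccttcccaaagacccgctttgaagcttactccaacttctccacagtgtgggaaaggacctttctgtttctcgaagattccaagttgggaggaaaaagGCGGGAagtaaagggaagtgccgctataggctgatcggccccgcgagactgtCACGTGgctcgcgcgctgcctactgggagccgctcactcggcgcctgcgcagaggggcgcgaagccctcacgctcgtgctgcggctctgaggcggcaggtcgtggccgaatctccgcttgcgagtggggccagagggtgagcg
Syce1: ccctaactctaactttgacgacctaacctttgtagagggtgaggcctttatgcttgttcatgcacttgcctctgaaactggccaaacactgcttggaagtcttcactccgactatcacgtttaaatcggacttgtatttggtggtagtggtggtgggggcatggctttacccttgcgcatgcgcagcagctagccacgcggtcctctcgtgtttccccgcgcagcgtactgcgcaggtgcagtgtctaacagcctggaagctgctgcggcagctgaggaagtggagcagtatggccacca

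The presence of both motifs did not sort the genes by direction of change. *Sycp3*, *Sycp1*, *Hormad1* and *Tex12*, which have both, fell with age in at least 1 genotype, but so did *Hormad2*, which has neither. *Syce2*, with both motifs, rose in KO together with *Syce1*, which has neither.

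The question asked first was how the genes change with age, from day 20 to day 26. In WT, 3 of 9 genes fell and none rose, against 18.1% of all tested genes called lower and 24.4% called higher (edgeR quasi-likelihood test, Benjamini-Hochberg adjusted p under 0.05). These were *Hormad2*, *Sycp1* and *Tex12*, an axis gene, the transverse filament gene and a central element gene. In KO, 3 of 9 fell (*Sycp3*, *Hormad1* and *Tex12*) and 2 of 9 rose (*Syce1* and *Syce2*), against 24.9% and 27.2% of all genes. The median log2 fold change of the 9 genes was -0.36 in WT and -0.41 in KO, beside -0.04 and -0.07 over all tested genes. Without WT day 20 replicate 2 the WT median was -0.16, and with libraries scaled to Sertoli cell genes, described below, the medians turned to 0.34 and 0.24. In KO both counts of the 9 lie near the shares of all genes. These are whole testes, in which fewer spermatocytes and less RNA per spermatocyte cannot be told apart. Each age effect comes from 4 libraries against 2. With the WT libraries of days 20 and 26 fitted alone, *Hormad2* (adjusted p = 0.0602), *Tex12* (0.135) and *Sycp1* (0.206) missed the threshold, and without either WT day 26 library *Hormad2* alone passed. Without either KO day 26 library *Syce1* and *Sycp3* passed in KO.

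**Figure D2:**
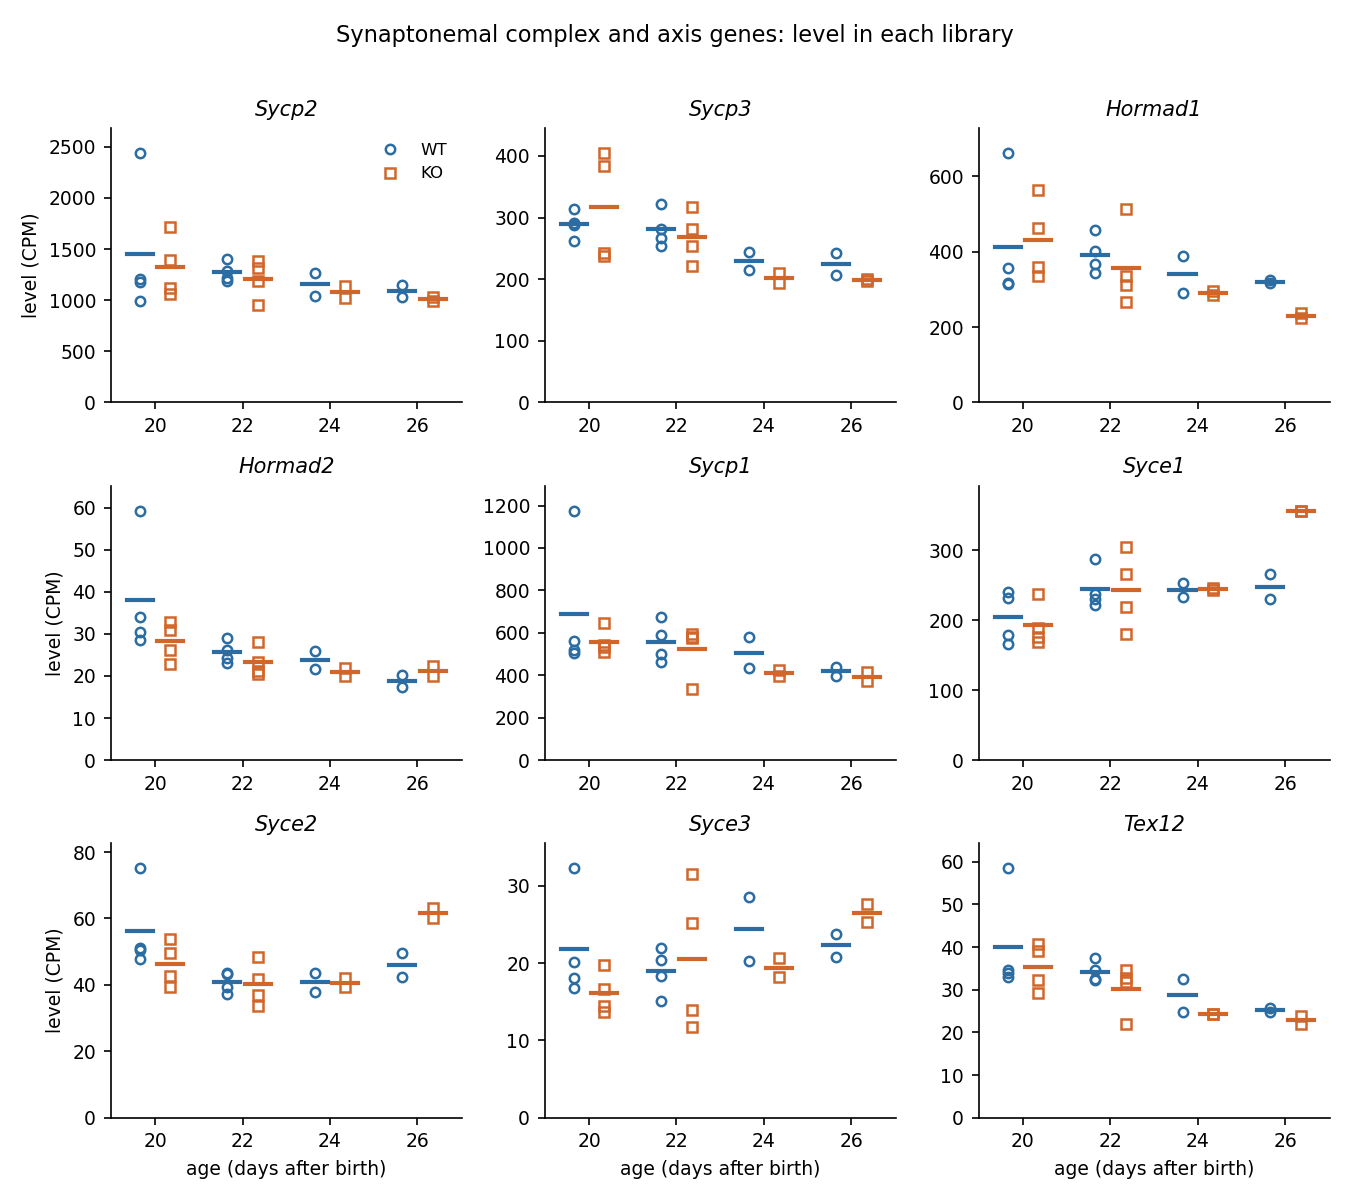
Level of each gene (CPM, linear axis from 0) by age in each WT library (circles) and KO library (squares), with horizontal bars at the group mean. The single high WT point at day 20 in most panels is replicate 2, and *Syce1* and *Syce2* in KO are highest at day 26.

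*Hormad2* (chr11:4345814-4441105, minus strand, GRCm38 with GENCODE M21), which marks unpaired axes and takes part in the surveillance of pairing, had the largest fall in WT. Its WT levels were 34.0, 59.3, 28.5 and 30.5 CPM at day 20, then 26.1, 29.0, 24.3 and 23.0 at day 22, 25.8 and 21.7 at day 24, and 20.3 and 17.4 at day 26. Both WT libraries of day 26 lay below all 4 of day 20, and the groups did not overlap. This was a log2 fold change of -1.01 (SE 0.234, adjusted p = 0.00161), and -0.76 without WT day 20 replicate 2 (adjusted p = 0.000619). In KO the levels were 30.8, 32.8, 26.2 and 23.0 CPM at day 20, then 28.0, 20.4, 21.1 and 23.4 at day 22, 20.1 and 22.0 at day 24, and 20.0 and 22.4 at day 26. The KO libraries of day 26 also lay below those of day 20, by a smaller margin, with a log2 fold change of -0.41 (SE 0.228, adjusted p = 0.138). It passed the threshold without WT day 20 replicate 2 (-0.41, adjusted p = 0.0255), which enters this KO comparison mainly through the shared spread. It also passed with a replicate block (-0.57, adjusted p = 0.0253). That block links equal replicate numbers of different ages, a link the labels do not give. The same gene gave 1 of the calls between neighbouring days, WT day 22 against day 20 (-0.57, SE 0.183, adjusted p = 0.0321), which fell to -0.29 and was lost without WT day 20 replicate 2 (adjusted p = 0.122).

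*Hormad1* (chr3:95559677-95587671, plus strand), its more abundant paralogue, which is needed for double-strand breaks and pairing, fell in KO. KO libraries held 464, 563, 359 and 336 CPM at day 20, then 514, 337, 312 and 268 at day 22, 284 and 296 at day 24, and 236 and 225 at day 26. The KO day 26 libraries were the lowest of all 24 for this gene and lay apart from those of day 20, with a log2 fold change of -0.90 (SE 0.287, adjusted p = 0.0124). WT libraries held 315, 662, 317 and 357 CPM at day 20, then 343, 457, 403 and 367 at day 22, 390 and 291 at day 24, and 316 and 326 at day 26, so that the WT groups overlapped. In WT the value was -0.36 (SE 0.279, adjusted p = 0.307), and -0.08 without WT day 20 replicate 2 (adjusted p = 0.784).

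*Sycp2* (chr2:178345293-178407685, minus strand), the scaffold of the lateral element, was the most abundant of the 9 in reads and supplied 43.6% to 46.3% of their summed CPM in each of the 8 groups. WT libraries held 1203, 2440, 992 and 1181 CPM at day 20 and 1033 and 1151 at day 26. KO libraries held 1396, 1714, 1122 and 1057 CPM at day 20 and 1036 and 992 at day 26. The day 26 libraries overlapped day 20 in WT and lay just below it in KO. Its log2 fold changes were -0.41 in WT (SE 0.264, adjusted p = 0.216; -0.084 without WT day 20 replicate 2, adjusted p = 0.715) and -0.38 in KO (SE 0.264, adjusted p = 0.231), neither past the threshold. *Sycp3* (chr10:88459569-88473236, plus strand), which binds SYCP2 and compacts the axis, fell in KO. Its KO levels were 384, 405, 238 and 242 CPM at day 20, then 317, 281, 221 and 254 at day 22, 210 and 193 at day 24, and 197 and 201 at day 26. All 4 KO libraries of days 24 and 26 lay below all 8 of the earlier days, although replicates 1 and 2 of day 20 were far above replicates 3 and 4. This was a log2 fold change of -0.67 (SE 0.194, adjusted p = 0.00663). It passed the threshold with each library left out in turn but missed it with the KO libraries of days 20 and 26 fitted alone (-0.63, adjusted p = 0.0602). WT libraries held 288, 313, 263 and 292 CPM at day 20 and 207 and 243 at day 26, without overlap, with a log2 fold change of -0.36 (SE 0.191, adjusted p = 0.134).

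*Sycp1* (chr3:102818499-102936100, minus strand), the transverse filament protein, held 517, 1176, 505 and 560 CPM in WT at day 20, then 591, 673, 502 and 463 at day 22, 579 and 435 at day 24, and 397 and 441 at day 26. The day 26 libraries lay below all of day 20, but replicate 2 of day 20 was above every other library of the series. The fall was -0.72 on the log2 scale (SE 0.285, adjusted p = 0.0472), and -0.37 without that library, where the call was lost (adjusted p = 0.122), as it was in 12 of 24 fits that left out 1 library. KO libraries held 544, 648, 531 and 511 CPM at day 20, then 575, 596, 582 and 335 at day 22, 399 and 425 at day 24, and 417 and 371 at day 26, also without overlap, with a log2 fold change of -0.50 (SE 0.282, adjusted p = 0.139). This value passed without WT day 20 replicate 2 (-0.50, adjusted p = 0.0258), with a replicate block (-0.69, adjusted p = 0.024) and with the 2 groups fitted alone (-0.46, adjusted p = 0.015). The library left out is in neither KO group and bears mainly on the shared spread, and the block links replicate numbers across ages.

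Within the central element the genes split. *Tex12* (chr9:50556819-50561325, minus strand), the partner of SYCE2, passed the threshold for a fall in both genotypes. WT libraries held 33.0, 58.4, 33.9 and 34.6 CPM at day 20, then 32.5, 37.4, 34.6 and 32.4 at day 22, 32.6 and 24.9 at day 24, and 24.7 and 25.8 at day 26, with a log2 fold change of -0.66 (SE 0.215, adjusted p = 0.0176), and -0.47 without WT day 20 replicate 2 (adjusted p = 0.0236). KO libraries held 39.0, 40.7, 29.3 and 32.4 CPM at day 20, then 34.6, 31.7, 32.8 and 22.0 at day 22, 24.4 and 24.4 at day 24, and 22.0 and 23.9 at day 26, with a log2 fold change of -0.62 (SE 0.215, adjusted p = 0.0196). In neither genotype did the 2 ages overlap.

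*Syce1* (chr7:140777229-140787852, minus strand), a central element protein that contacts the ends of the transverse filaments, went the other way. KO libraries held 237, 188, 176 and 169 CPM at day 20, then 180, 304, 266 and 219 at day 22, 243 and 246 at day 24, and 356 and 355 at day 26. The KO libraries of day 26 were the highest of all 24, and the log2 fold change over day 20 was 0.89 (SE 0.181, adjusted p = 0.000445), which passed the threshold with each library left out in turn. WT libraries held 232, 240, 166 and 179 CPM at day 20, then 287, 222, 230 and 237 at day 22, 253 and 233 at day 24, and 229 and 266 at day 26. The WT groups of days 20 and 26 overlapped, with a log2 fold change of 0.28 (SE 0.184, adjusted p = 0.231).

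*Syce2* (chr8:84872111-84888221, plus strand), which elongates the central element together with TEX12, rose in KO. Its KO levels were 53.7, 49.5, 42.7 and 39.5 CPM at day 20, then 36.9, 41.8, 48.5 and 33.7 at day 22, 42.1 and 39.2 at day 24, and 60.1 and 63.3 at day 26. KO day 26 again lay above all other KO libraries, with a log2 fold change over day 20 of 0.41 (SE 0.17, adjusted p = 0.0467). This call was lost in 13 of 24 fits that left out 1 library, with the lowest value 0.34 without KO day 20 replicate 4 (adjusted p = 0.114), and with a replicate block (0.32, adjusted p = 0.0962). WT levels were 51.0, 75.1, 50.4 and 47.9 CPM at day 20, then 43.5, 43.2, 39.3 and 37.2 at day 22, 43.7 and 37.8 at day 24, and 49.7 and 42.3 at day 26. All WT libraries of day 22 lay below all of day 20 (log2 fold change -0.46, SE 0.142, adjusted p = 0.0263), a call lost without WT day 20 replicate 2 (-0.30, adjusted p = 0.0661). From day 20 to day 26 the WT groups overlapped (-0.28, SE 0.175, adjusted p = 0.198), with a value of -0.16 without that library (adjusted p = 0.357). *Syce3* (chr15:89390174-89410503, minus strand), a small protein that links the central element to SYCP1, held 19.7, 16.6, 14.5 and 13.6 CPM in KO at day 20, then 13.9, 31.4, 25.1 and 11.7 at day 22, 20.7 and 18.2 at day 24, and 27.6 and 25.2 at day 26. The KO libraries of day 22 were the most scattered for this gene. Those of days 20 and 26 did not overlap, and the log2 fold change of 0.71 (SE 0.3, adjusted p = 0.0513) missed the threshold, which it passed by DESeq2 (0.80, adjusted p = 0.0302), with RLE size factors (0.80, adjusted p = 0.0314), without the count filter (0.74, adjusted p = 0.0454) and with the 2 groups fitted alone (0.76, adjusted p = 0.00432). In WT its levels were 16.8, 32.2, 20.1 and 18.1 CPM at day 20 and 23.8 and 20.7 at day 26, which overlapped (log2 fold change 0.04, SE 0.307, adjusted p = 0.934, and 0.23 without WT day 20 replicate 2, adjusted p = 0.53). *Sycp3* and *Tex12* lie within the spans of *Chpt1* and *Il18* on the opposite strand and *Syce2* partly within that of *Gcdh*, which the strand-specific counting told apart.

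Between neighbouring ages, 2 of 54 gene and step pairs passed the threshold, both in WT from day 20 to day 22 and both lower (*Hormad2* and *Syce2*), against 7.15% of all genes called lower there. At the other steps no gene of the 9 was called by edgeR (unadjusted p under 0.05 in 1 gene at day 22 against 20, 1 at 24 against 22 and 2 at 26 against 24 in KO, and in 0 at the later WT steps), against 5.92% of all genes at 24 against 22 and 0.274% at 26 against 24 in WT, and 10.6%, 0.402% and 0.0116% in order in KO. DESeq2 called *Syce2* in addition at 26 against 24 in KO. With the libraries of the compared ages fitted alone, *Hormad1*, *Syce1*, *Syce2* and *Syce3* passed at that step, in a fit that called 41.8% of all genes. Between the ends of the series, KO day 26 lay below KO day 20 without overlap for 6 genes and above for the 3 *Syce* genes, against 35.9% and 34.1% of all genes. In WT 4 genes lay below, none above and 5 overlapped, against 22.5% of all genes lying below and 27.9% above.

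Because the share of germ cells in the testis grows with age, the comparison was also made with the libraries scaled to 7 Sertoli cell genes (*Sox9*, *Wt1*, *Fshr*, *Dhh*, *Cldn11*, *Clu* and *Rhox5*), which mark the supporting cells of the tubule. The Sertoli genes themselves fell relative to other genes, 6 of 7 in WT and 5 of 7 in KO. Scaling to them raised the median log2 fold change of all genes by 0.71 in WT and 0.65 in KO. On that scale none of the 9 genes was called lower in either genotype (edgeR, also 0 at an unadjusted p under 0.05), and 7 of 9 had a value above 0 in each, where 11.1% of all genes in WT and 20.1% in KO lay below 0. *Syce1* rose in both, by 0.99 in WT (adjusted p = 0.000581) and 1.54 in KO (adjusted p = 4.59e-06). *Syce2* (1.06, adjusted p = 7.17e-05) and *Syce3* (1.36, adjusted p = 0.0014) rose in KO, whereas the values of *Hormad1* in KO (-0.25) and *Hormad2* in WT (-0.31) stayed below 0 without passing the threshold. The order of the genes was the same on both scales, since scaling moves all genes together, but the direction given above for *Hormad1*, *Hormad2*, *Sycp1*, *Sycp2*, *Sycp3*, *Syce2* and *Tex12* turned with it in at least 1 genotype.

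**Figure D3:**
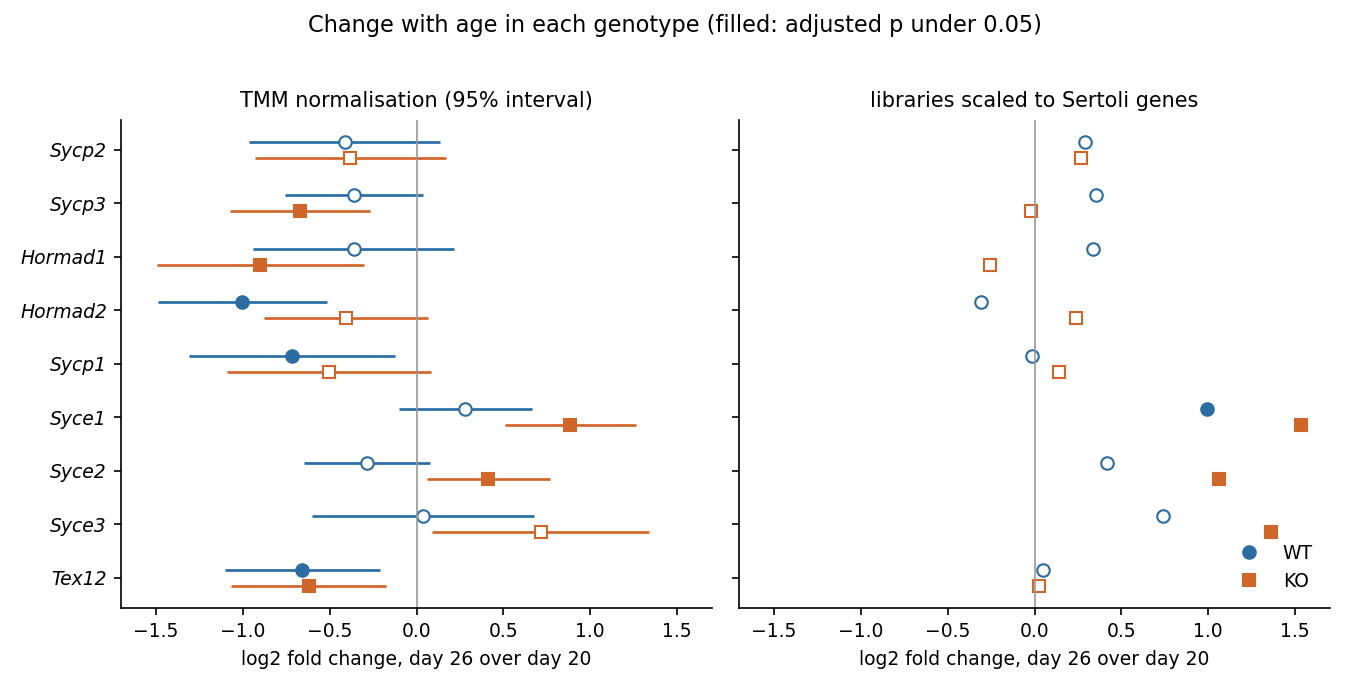
Log2 fold change from day 20 to day 26 in WT (circles) and KO (squares), with TMM normalisation and 95% intervals at the left and with libraries scaled to Sertoli genes at the right. Filled symbols have an adjusted p under 0.05, and *Syce1*, *Syce2* and *Syce3* in KO lie farthest to the right on both scales.

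The composition of the group of 9 transcripts shifted accordingly. *Syce1* made up 6.64% of the summed CPM of the 9 genes in KO at day 20 and 15.3% at day 26, against 6.75% and 10.2% in WT. *Hormad1* made up 14.5% and then 9.90% in KO, against 12.8% and 13.3% in WT. Within each library, log2 CPM of *Syce1* minus that of *Hormad1* was -1.58 to -0.97 in KO at day 20 and 0.59 to 0.66 in KO at day 26, the only group in which *Syce1* exceeded *Hormad1*. In WT this difference was -1.47 to -0.44 at day 20 and -0.46 to -0.29 at day 26. This pair was chosen after its values were seen, and its difference was not tested.

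The genes did not share one profile. Over the 8 group means, Pearson's r between pairs of the 9 genes ran from -0.913 (*Syce1* and *Hormad1*) to 0.995 (*Sycp2* and *Tex12*), and *Sycp1*, *Sycp2*, *Sycp3*, *Tex12* and *Hormad2* correlated with the mean profile of the 9 at 0.826 to 0.942. *Hormad1* (0.694), *Syce2* (0.276), *Syce3* (-0.26) and *Syce1* (-0.546) departed from it. The genes outside the group closest to the mean profile were *1810022K09Rik* (r = 0.989), *Rps26* (0.985), *2810429I04Rik* (0.979), *Med6* (0.974), *Top2a* (0.971) and *Rpl35* (0.971), among 17161 compared. These correlations are over 8 points that share libraries and normalisation, and are given as a description.

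Other genes of meiotic chromosomes were then set beside the 9. Of 13 genes of axis and complex partners, 6 passed the threshold between day 20 and day 26 in WT (2 higher and 4 lower) and 8 in KO (3 higher and 5 lower), with medians of -0.17 and 0.06. Of all tested genes, 24.4% were called higher and 18.1% lower in WT, and 27.2% and 24.9% in KO. These shares stand beside all counts with age in this paragraph. *Rec8*, a meiotic cohesin kleisin of the axis, rose in both genotypes (2.21 in WT, adjusted p = 1.05e-06, and 1.91 in KO, adjusted p = 1.03e-05), whereas *Rad21l*, the other meiotic kleisin, fell (-1.38, adjusted p = 0.00281, and -1.07, adjusted p = 0.0126). *4930447C04Rik* (*Six6os1*), a further central element gene, fell by 1.14 in WT (adjusted p = 0.00265) and by 0.94 in KO (adjusted p = 0.00824), the direction of *Tex12* and not of *Syce1*. *Stag3*, a meiotic cohesin subunit, rose in KO (0.60, adjusted p = 0.00118) and was at 0.23 in WT (adjusted p = 0.199). Of 7 crossover factors, 3 fell in WT and 5 in KO and none rose, including *Tex11* (-1.03, adjusted p = 0.0273, and -1.25, adjusted p = 0.00795). Of 7 genes that tether telomeres to the nuclear envelope, 1 fell in WT (*1700123I01Rik*, *Majin*) and 1 rose in KO (*Ccdc155*, *Kash5*). Lists of cell type markers moved with the same ages. Early meiosis genes fell for 5 of 6 in WT and 3 of 6 in KO, pachytene genes rose for 4 of 6 in each, and round spermatid genes rose for 6 of 6 in each. Spermatogonia genes fell for 5 of 7 in WT and 4 of 7 in KO, and peritubular genes for 3 of 5 and 4 of 5. Leydig genes rose for 7 of 7 in WT and 2 of 7 in KO. The summed CPM of the pachytene list was 2365 to 3476 in WT and 3162 to 3627 in KO at day 20, and 4835 to 5380 in WT and 6387 to 6587 in KO at day 26. The part of these shifts in the changes of the 9 genes was not tested beyond the fit with a stage score, in which none of the 9 passed the threshold for age (edgeR; at an unadjusted p under 0.05, 0 in WT and 1 in KO). In that fit 0 of all tested genes were called for age in WT and 2130 in KO, so the WT count holds nothing particular to the 9. Fold changes were not all smaller there, since *Sycp1* in WT was at -0.83 and the 9 genes in KO ran from -0.57 (*Sycp1*) to 0.79 (*Syce1*).

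**Figure D4:**
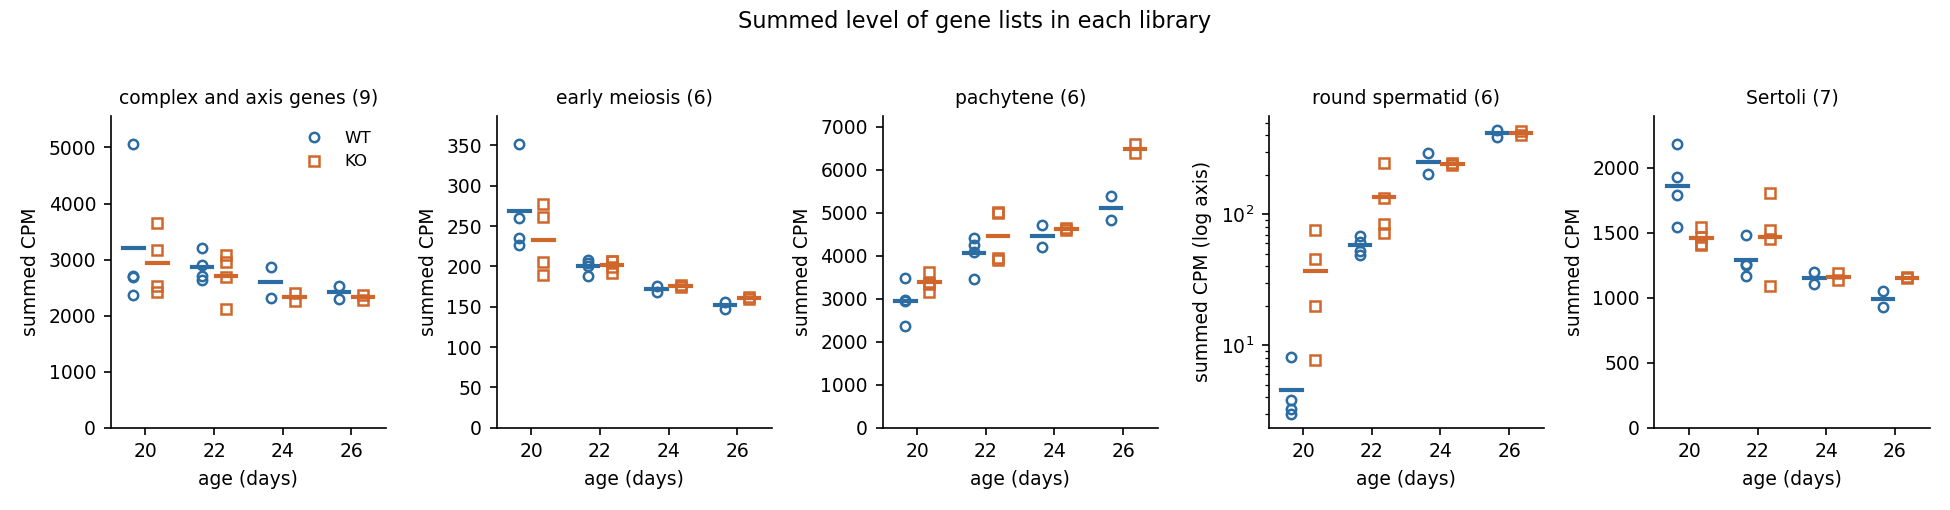
Summed CPM of the 9 genes and of marker lists in each WT library (circles) and KO library (squares) by age, with bars at the mean; the round spermatid panel has a log axis, and the number of genes is in brackets. In both genotypes the early meiosis sums of day 26 lie below and the pachytene and round spermatid sums above those of day 20, whereas the sums of the 9 genes in WT overlap between these days, with replicate 2 of day 20 at 5056 CPM and the other 3 at 2377 to 2700 CPM. The KO libraries of day 26 are highest for the pachytene list.

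The second question was whether loss of ATAD2 altered these genes. None of the 9 passed the threshold in KO against WT at day 20, 22, 24 or 26 or in the mean of the 4 days, by the edgeR quasi-likelihood test or by DESeq2. The share of all genes called was 3.34% at day 20, 2.51% at day 22, 0.0874% at day 24, 0.0466% at day 26 and 7.08% in the mean of the 4 days. At an unadjusted p under 0.05, the count was 1 of 9 at day 20, 0 at days 22 and 24, 2 at day 26 and 0 in the mean, where 2141, 2505, 898, 1979 and 3982 of the 17170 genes tested had such a p. Log2 fold changes of the 9 genes ran from -0.43 to 0.13 at day 20, from -0.18 to 0.12 at day 22, from -0.33 to 0.01 at day 24 and from -0.48 to 0.52 at day 26. The lowest at day 20 was that of *Syce3*, for which WT day 20 replicate 2 held 32.2 CPM and the other WT libraries 16.8 to 20.1.

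Averaged over the 4 days, 12 KO were set against 12 WT libraries, and 7 of 9 genes had values below 0, beside 49% of all genes. The values ran from -0.20 for *Sycp1* (95% interval -0.48 to 0.09) and *Hormad1* (-0.48 to 0.09) to 0.11 for *Syce1* (-0.08 to 0.30). *Tex12* was at -0.18 (-0.40 to 0.04), *Hormad2* at -0.14 (-0.38 to 0.09) and *Sycp2* at -0.10 (-0.37 to 0.17). *Sycp3* was at -0.07 (-0.27 to 0.12), *Syce3* at -0.10 (-0.42 to 0.22) and *Syce2* at 0.03 (-0.15 to 0.21). No interval reached a change of 0.5 on the log2 scale in either direction. Without WT day 20 replicate 2, *Sycp1* moved to -0.097 and *Hormad1* to -0.11, and 7 of 9 values were again below 0.

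Among single days, the 3 values with an unadjusted p under 0.05 were *Hormad2* at day 20 (-0.43, SE 0.182, adjusted p = 0.302), *Syce1* at day 26 (0.52, SE 0.215, adjusted p = 0.353) and *Syce2* at day 26 (0.42, SE 0.199, adjusted p = 0.42). The value of *Hormad2* moved to -0.15 without WT day 20 replicate 2 (adjusted p = 0.572) and to -0.12 with the stage score as covariate, a fit that left *Syce1* at day 26 at 0.53 (adjusted p = 0.287) and *Syce2* at 0.41 (adjusted p = 0.367). At day 26 the 2 KO libraries lay above the 2 WT libraries for *Syce1*, *Syce2* and *Syce3* and below them for *Hormad1*, *Sycp3* and *Tex12*, and overlapped them for the other 3 genes, where 27.8% of all genes lay above and 31.1% below. At day 24, KO lay below WT for *Sycp1*, *Sycp3* and *Tex12*, against 21.4% of all genes. With the 4 libraries of day 26 fitted alone, 3 genes passed the threshold: *Syce1* (0.53, adjusted p = 0.00831), *Hormad1* (-0.47, adjusted p = 0.00968) and *Syce2* (0.43, adjusted p = 0.0268). That fit took the spread from 2 libraries in each group and called 2104 genes (12.8%), where the fit of all 24 libraries called 8 and put *Hormad1* at -0.48 (SE 0.319, adjusted p = 0.59).

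Finally, the effect of genotype was compared between days. No gene of the 9 passed a joint test of a KO effect that differs between days (0.00582% of all genes called, no member at an unadjusted p under 0.05), and DESeq2 also called none. The change from day 20 to day 26 in KO minus that in WT passed the threshold for none (0% of all genes), with DESeq2 also calling none of the 9. An unadjusted p under 0.05 was seen for *Syce2* (0.70, SE 0.245, adjusted p = 0.26) and *Syce1* (0.61, SE 0.263, adjusted p = 0.389). The genes that passed in one genotype and not in the other were therefore not shown to differ between genotypes. The partner, crossover and telomere lists likewise had no gene called in KO against WT on any day by edgeR or DESeq2, with 6 of 108 gene and day pairs at an unadjusted p under 0.05. In the mean of the 4 days edgeR called 0 of them and DESeq2 called 1 of the 13 axis and complex partners, of which 2 had an unadjusted p under 0.05 by edgeR.

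**Figure D5:**
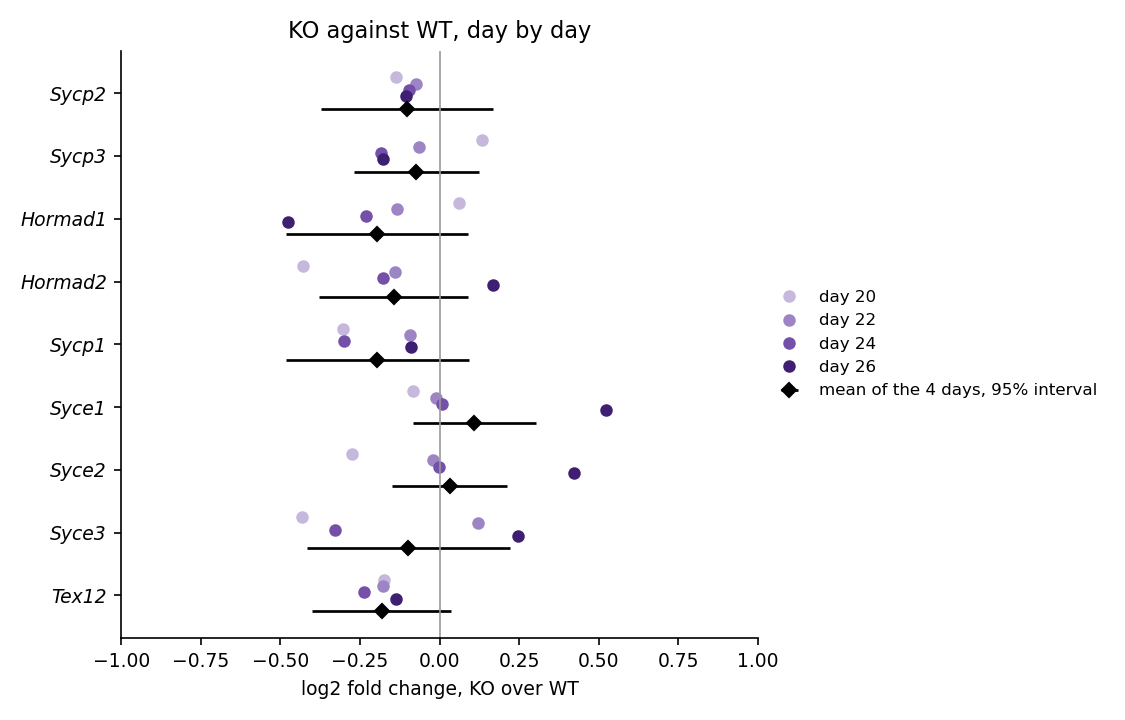
Log2 fold change of KO over WT for each gene at days 20, 22, 24 and 26 (dots, light to dark) and for the mean of the 4 days with its 95% interval (diamonds). All intervals of the mean include 0, and the dots of day 26 for *Syce1* and *Hormad1* lie farthest from it.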

How the data were processed

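Raw counts per gene were deposited for 24 libraries. Per the labels and the study's methods, the authors aligned reads with STAR 2.7.11b to mm10 and counted strand-specific exon reads with HTSeq, without reads of several places or replicate pooling. Rows that name no gene were left out of totals and tests; reads outside annotated exons made up 45.1% to 58.5% of all, ambiguous reads 0.132% to 0.229%. The study's text gives 3 replicates at day 20, whereas the labels give 4, all used here.

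Counts were fitted with edgeR 4.0.16 (R 4.3.3; TMM, filterByExpr with a minimum count of 10, robust quasi-likelihood) over 8 groups of genotype and day, p-values were adjusted over the 17170 genes tested, and the threshold was 0.05. DESeq2 1.42.0, RLE size factors, no filter, the compared groups alone, a replicate block, a stage score, Sertoli scaling, an additive model and leaving out each library were alternatives. CPM used TMM-scaled library sizes, with a prior count of 2 for log2 values, and FPKM the exon union of GENCODE M21. The code was tested on simulated data. Members, lists, motifs and the rule for named genes (all 9 members, *Atad2*, the genes of each pathway list past the threshold by smallest p, and the 6 genes with the profile most alike) were chosen with earlier results of these data known.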

Additional observations from a re-analysis of the deposited data

Results flagged for a closer look

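Dixon's criterion flags about 1 in 20 independent sets of normally spread values, but here 9 genes share the same libraries, so the sets are not independent. In 36 sets of 4 libraries (9 genes in the 4 groups of days 20 and 22), 6 held a library that stood apart from the other 3 by this criterion. WT day 20 replicate 2 gave 5 of them: *Sycp1* at 1176 CPM, *Sycp2* at 2440 CPM, *Syce2* at 75.1 CPM, *Tex12* at 58.4 CPM and *Hormad1* at 662 CPM, each above the other WT libraries of day 20. The remaining value was *Sycp1* in KO day 22 replicate 4, at 335 CPM below the other 3 libraries. That library had 4.74% of reads mapped to several places, the lowest share of the 24, and was the lowest of its group for 6 of the 9 genes.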

How the results depend on the processing

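No setting changed the count of 0 genes called in KO against WT, except the fit of the day 26 libraries alone, with 3. With a replicate block, 5 genes were called between days 20 and 26 in WT (*Sycp2* and *Sycp3* added) and 7 in KO (*Hormad2*, *Sycp1* and *Sycp2* added, *Syce2* lost), where 45.2% and 53.2% of all genes were called, and *Syce3* in WT turned to -0.12. For age, this block took replicate number as a factor across ages, which the labels do not link. For KO against WT it took day and number together. Day 26 has only replicates 1 and 2, which at KO day 20 held 3169 and 3658 summed CPM of the 9 genes. Replicates 3 and 4 held 2537 and 2423. Replicate numbers were not taken as pairs: same-numbered libraries correlated at 0.071 to 0.41 at day 20, where 6 of 8 did so best with their own number, and at -0.46 to -0.025 at day 22, where 0 of 8 did. With 2 libraries a group, the value was 0.39 at day 24 and 0.42 at day 26, and 7 of 12 pairs in all were above 0.1. Fits of the compared groups alone gave 0 genes with age in WT, 6 in KO (*Sycp1* and *Syce3* added, *Sycp3* lost) and 4 steps between neighbouring days, all from day 24 to 26 in KO, where 20.2%, 57.1% and 41.8% of all genes were called. With the stage score as covariate, no gene passed with age in WT (0), in KO (0) or between neighbouring days (0), where 0 of all genes passed with age in WT and 2130 in KO, and signs turned for *Sycp2* (0.18), *Sycp3* (0.67), *Syce3* (-0.69) and *Hormad1* (0.57) with age in WT, *Hormad2* with age in KO (0.015) and *Sycp3* in the mean of the days (0.053). The additive model turned *Syce2* to -0.028 in that mean. Sertoli scaling called 1 gene with age in WT and 3 in KO, and turned *Sycp2* (0.29), *Sycp3* (0.36), *Syce2* (0.42), *Tex12* (0.046) and *Hormad1* (0.34) in WT and *Sycp1* (0.14), *Sycp2* (0.27), *Tex12* (0.028) and *Hormad2* (0.24) in KO. Apart from the scalings, the cause of these changes was not tested.

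With single libraries left out, genes called with age numbered 1 to 3 in WT, the lowest without either day 26 library (*Hormad2* then remained), and 2 to 8 in KO. The KO count was 2 without either KO day 26 library (*Syce1* and *Sycp3*), 3 without KO day 20 replicate 2 and 8 without WT day 20 replicate 2. Steps between neighbouring days numbered 0 to 3, with 0 without WT day 22 replicate 3 or 4, 1 without WT day 22 replicate 1 and 1 without WT day 20 replicate 2, *Syce2* from day 24 to 26 in KO. WT day 20 replicate 2 is in neither KO group, so leaving it out bears on the KO count mainly through the spread shared by all groups. *Syce3* with age in WT ran from -0.10 to 0.23. Under RLE factors and without the count filter *Sycp1* in WT missed the threshold (adjusted p = 0.0598 and 0.0543). Comparisons at days 24 and 26 rest on 2 libraries a genotype.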

Other observations

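Replicates of KO at day 20 fell into 2 pairs. Replicates 1 and 2 held 3169 and 3658 summed CPM of the 9 genes, and replicates 3 and 4 held 2537 and 2423. The stage score of the same libraries, the mean of log2 CPM centred on each gene's mean over all libraries, for round spermatid genes minus pachytene genes, was -1.47 and -2.82 in replicates 1 and 2 against -0.22 and 0.41 in replicates 3 and 4. The pairs were noticed in the values, and no test was made on them.

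The 2 WT libraries of day 24 also differed, with replicate 1 above replicate 2 for all 9 genes (0.279% against 0.237% of gene reads).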
